A study of Mus musculus with 32 samples.

Results

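The 10 genes described here encode secreted ligands of the TGF-beta family, and they were taken by name from the 54532 genes of the count table. They are Gdf7, a growth and differentiation factor, the activin subunit genes Inhba and Inhbb, the bone morphogenetic protein genes Bmp2, Bmp4, Bmp6 and Bmp7, and the TGF-beta genes Tgfb1, Tgfb2 and Tgfb3. Gdf7 was chosen by its measured level in these same libraries, a rise from near 0 in males after Day 0, so its changes from Day 0 and its differences between the sexes are given below as descriptions with no test, and counts of ligands that passed a test are over the other 9.

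Kidney RNA was sequenced from 32 wild-type (wt) C57bl/6 mice, aged 6 to 8 weeks per the study's methods, with 4 mice in each of 8 groups. Male and female kidneys were taken at Day 0, which the study calls healthy, and at Day 2, Day 3 and Day 5 after a single intra-peritoneal injection of 20 mg/kg cisplatin, a platinum drug that injures the kidney tubule. The sample labels of the Day 0 females name cisplatin as the treatment and those of the Day 0 males give NA. Each library was 1 mouse, so the SDs below are the spread between mice, and the SEs are those of fitted log2 ratios.

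The libraries held between 16502107 and 35961325 counted reads. Mitochondrial genes took between 42.5% and 79.8% of the reads in the 4 male Day 5 libraries and 77.9% in female Day 5 mouse 2, against at most 31.6% elsewhere, which left a smaller share of reads for all other genes. The library labelled male Day 5 mouse 1 went against its label, with 4153 reads on Xist, an RNA of the inactive X chromosome, and 387 on 4 Y-linked genes, where the other male libraries held 0 to 260 and 447 to 3195. The male Day 5 values below include it unless they are said to leave it out. The 4 female Day 0 libraries held 5 to 221 Y-linked reads, and the other 12 female libraries held 0. Among genes of other tissues, 5 hepatocyte genes summed to 9670 CPM (counts scaled to library size) in female Day 0 mouse 2 and to between 51.4 and 338 in the other female Day 0 libraries, and 6 adrenal genes reached 842 CPM at female Day 3 and lay between 197 and 549 CPM in all 4 female Day 5 libraries, against 2.85 to 73.6 at female Day 0. In whole kidney, fewer cells of a type and less RNA per cell cannot be told apart.

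Ligands of this family are made as precursors that are cut by proprotein convertases and secreted as dimers. They bind paired type I and type II receptor kinases, which phosphorylate Smad proteins that enter the nucleus, and the BMP and GDF branch uses other Smads than the TGF-beta and activin branch. TGF-beta proteins are held latent in the matrix until released, and secreted antagonists such as noggin and follistatin limit BMPs and activins. In the kidney, Bmp7 and Bmp4 are known for their roles in nephron and ureter development, Bmp7 is made by adult tubule cells, and Tgfb1 is a driver of fibrosis.

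Sequence upstream of the gene start was read for Gdf7 and Tgfb2, the members whose male and female libraries did not overlap on either Day 2 or Day 3. Both runs are RefSeq promoter sequence of the build GRCm38.p6, on the minus strand, and hold the 250 bases before the start. They lie at chr12:8301955-8302204 for Gdf7 and chr1:186705990-186706239 for Tgfb2. Capitals mark matches on either strand to the GC box (GGGCGG), the TATA box (TATAAA), the CCAAT box (CCAAT) and the E-box (CACGTG).
Gdf7: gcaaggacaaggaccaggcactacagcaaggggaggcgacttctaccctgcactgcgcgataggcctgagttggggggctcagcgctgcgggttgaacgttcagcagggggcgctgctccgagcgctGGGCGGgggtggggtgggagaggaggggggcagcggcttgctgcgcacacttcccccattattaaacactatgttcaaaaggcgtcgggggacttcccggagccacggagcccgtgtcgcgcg
Tgfb2: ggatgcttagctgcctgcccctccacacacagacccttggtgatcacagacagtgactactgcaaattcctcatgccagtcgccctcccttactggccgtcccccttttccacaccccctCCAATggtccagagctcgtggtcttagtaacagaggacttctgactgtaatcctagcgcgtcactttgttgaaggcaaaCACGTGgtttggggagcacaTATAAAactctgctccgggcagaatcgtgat
The Gdf7 stretch held 1 GC box, and 66.0% of its bases were G or C, against a median of 52.4% over 32817 promoters. The Tgfb2 stretch held 1 TATA box, 1 CCAAT box and 1 E-box. Of all promoters, 32.7% held a GC box, 12.4% a TATA box, 33.8% a CCAAT box and 6.02% an E-box, which describes the letters and not the use of a site. Neither stretch matched the hormone receptor half-site (AGAACA), the AP-1 site (TGACTCA) or the Smad box (GTCTAGAC). Of the 10 members, 7 had an entry, and Bmp2, Bmp7 and Tgfb3 did not.

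All 10 are protein-coding genes, and the positions here and below are those of GRCm38. Inhba lies on chromosome 13 from 16011851 to 16031621, Bmp6 on the same chromosome from 38345107 to 38500302, Bmp2 on chromosome 2 from 133552159 to 133562885 and Bmp7 on chromosome 2 from 172868012 to 172940321. Tgfb1 lies on chromosome 7 from 25687002 to 25705077, Tgfb2 on chromosome 1 from 186622792 to 186705989 and Tgfb3 on chromosome 12 from 86056745 to 86079041.

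Per unit of gene length, 4 of these 10 ligands made up most of their summed level in every group when all 4 mice were averaged, a sum that leaves out other family members such as Gdf15. In the deposited FPKM values, the mean male Day 0 level was 13.1 ± 2.1 for Bmp7, 10.8 ± 3.51 for Bmp6, 9.26 ± 2.59 for Bmp4 and 5.21 ± 1.39 for Tgfb1 (SD, n = 4). Neighbours among the first 3 differed by less than the larger of their SDs. Tgfb3 followed at 1.18 ± 0.761, and the means of Bmp2, Inhbb and Tgfb2 lay between 0.265 and 0.678. Gdf7 at 0.036 ± 0.0518 and Inhba at 0.0317 ± 0.0386 were lowest. Female Day 0 kidneys began with the same 4 genes in the same order, from 13.9 ± 2.82 for Bmp7 to 5.46 ± 1.51 for Tgfb1.

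**Figure D1:**
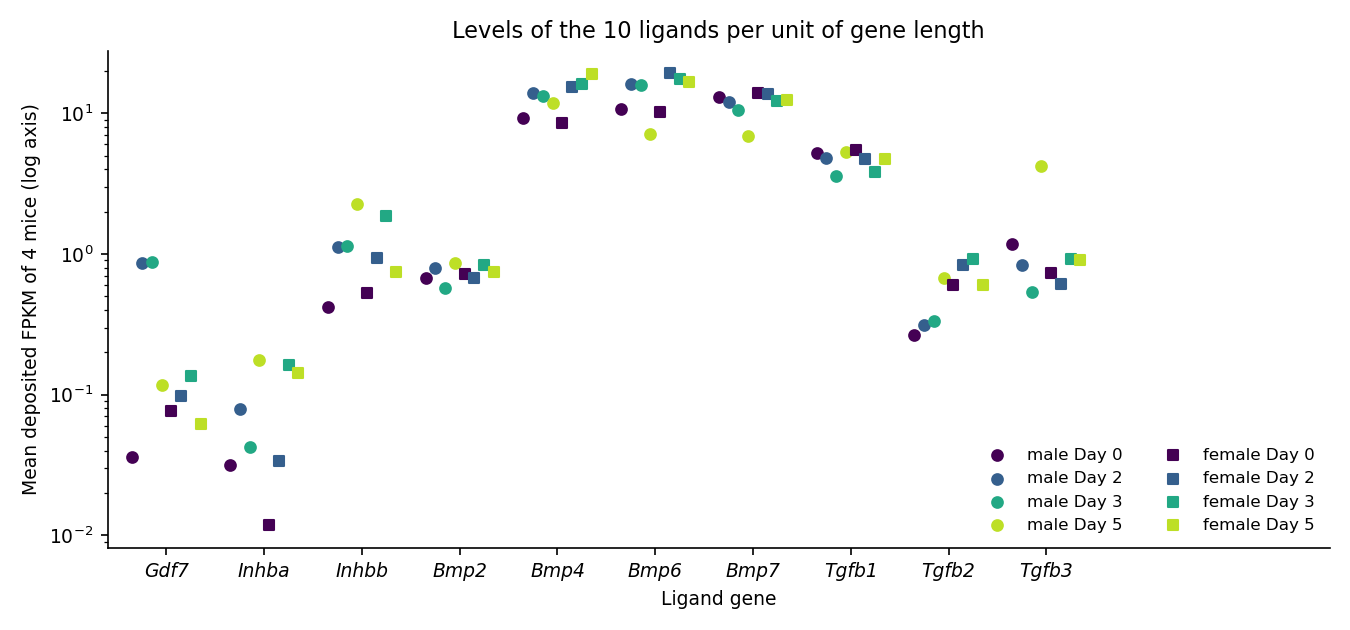
Mean FPKM of 4 mice for each ligand gene, on a log axis, with circles for male and squares for female groups and colour for the day. Within each group, Bmp4, Bmp6, Bmp7 and Tgfb1 lie above the other 6 genes in these means of 4 mice, with Tgfb3 nearest to them in the male Day 5 group at 4.21. Gdf7 reached 0.868 and 0.876 in the male Day 2 and Day 3 groups against at most 0.135 in females.

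These means came in another order after cisplatin. Bmp6 had the highest mean FPKM of the 10 in each sex on Days 2 and 3, at 16 and 15.9 in males and 19.2 and 17.5 in females, and Bmp4 at Day 5, at 11.8 in males and 18.9 in females. In every later group but male Day 3, the first mean led the second by less than the larger of their SDs. Of the summed FPKM of the 10 ligands, Bmp7 made up 32% in males at Day 0 and 17.5% at Day 5, and 34.1% and 22.3% in females. Gdf7 moved from 9th in males at Day 0 to 6th at Day 2 and Day 3, while in females it stayed 9th or 10th. Without the library labelled male Day 5 mouse 1, an alternative chosen after seeing the data, Bmp4 was still first at male Day 5 with 11.2 ± 0.889, followed by Tgfb1 at 5.93, Tgfb3 at 5.21, Bmp7 at 5.17 and Bmp6 at 4.53 (n = 3). Tgfb3 thus lay above Bmp7 and Bmp6 by less than their SDs of 1.8 and 1.77, and Bmp7 made up 14.1% of the summed FPKM.

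Few of the 9 other ligands passed the test against Day 0, where a gene passed if its Benjamini-Hochberg adjusted p in edgeR's quasi-likelihood test was under 0.05. In males at Day 2, 0 of 9 passed, against 1.81% of all genes tested that rose and 1.35% that fell. In that comparison 2 had an unadjusted p under 0.05 by edgeR, Inhbb and Bmp4, against 29.0% of all genes, and 1, Inhbb, passed in DESeq2's Wald test, against 16.3%. At male Day 3, Inhbb rose and no member fell, 1 of the 8 that passed the filter on low counts, against 11.4% of genes that rose and 13.1% that fell. At male Day 5, Inhbb again was the 1 of 8 that rose, against 8.98% of genes that rose and 10.2% that fell. Without the library labelled male Day 5 mouse 1, 2 ligands rose and 2 fell there, while the shares of all genes went up to 11.4% and 14.5%. In females, 0 of 8 passed at Day 2 (0.774% of genes rose and 1.16% fell), 1 of 9, Bmp4, rose at Day 3 (1.26% rose and 4.28% fell), and 0 of 9 passed at Day 5 (0.185% rose and 0.0738% fell). By edgeR, 2 ligands had an unadjusted p under 0.05 at female Day 2 and 2 at female Day 5, against 25.3% and 15.7% of all genes, and DESeq2 called 1 and 2, against 11.6% and 4.13%. Inhba was below the filter at male Day 3 and Day 5 and at female Day 2. The median log2 fold change of the tested ligands lay between 0.04 and 0.62 over these 6 comparisons, and that of all genes between 0.02 and 0.04.

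**Figure D2:**
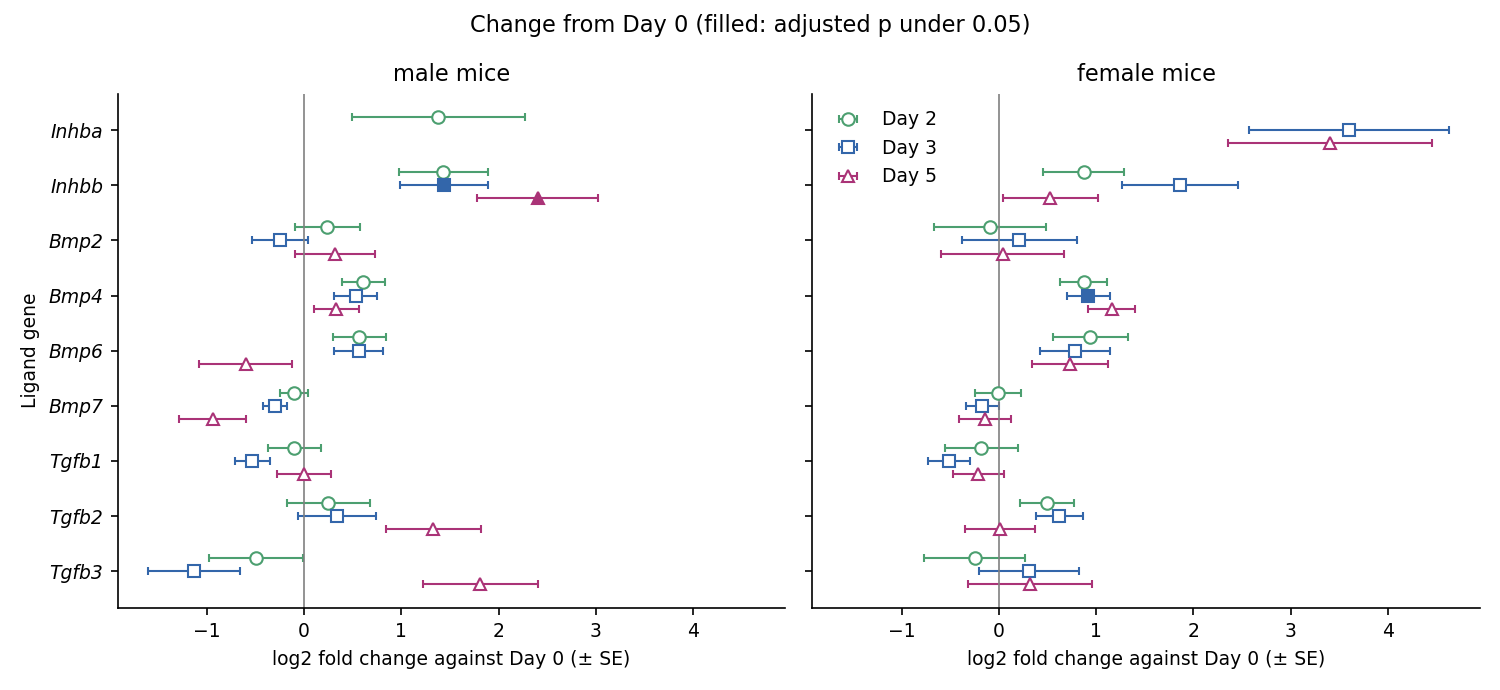
log2 fold change against Day 0 with its standard error for 9 ligands, males left and females right, with circles for Day 2, squares for Day 3 and triangles for Day 5. Filled symbols have an adjusted p under 0.05: Inhbb at male Day 3 (1.44) and Day 5 (2.40) and Bmp4 at female Day 3 (0.92).

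Gdf7, a BMP-type ligand known from the dorsal spinal cord, lies on chromosome 12 from 8297918 to 8301954 on the minus strand (ENSMUSG00000037660, GRCm38). Its read counts in male mice 1 to 4 were 3, 1, 0 and 0 at Day 0, 78, 21, 16 and 39 at Day 2, 44, 34, 25 and 26 at Day 3, and 0, 0, 4 and 0 at Day 5. Every male Day 2 and Day 3 library held more reads than every male Day 0 and Day 5 library, but on the CPM scale male Day 5 mouse 3 (0.645) lay just above the lowest Day 2 library (0.643). The mean was 0.0532 ± 0.0768 CPM at Day 0, 1.26 ± 0.774 at Day 2 and 1.28 ± 0.405 at Day 3 (SD, n = 4, scaled by TMM factors). With each Day 0 library set to the floor of 3 counts, this was at least 8.47-fold higher at Day 2 and at least 8.61-fold higher at Day 3. At Day 5, 3 counts were worth between 0.168 and 0.484 CPM in the male libraries, and the single library with reads stood at 0.645 CPM.

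Female Gdf7 counts stayed low. Mice 1 to 4 held 1, 13, 0 and 2 reads at Day 0, 7, 9, 1 and 3 at Day 2, 4, 22, 2 and 5 at Day 3, and 3, 0, 0 and 6 at Day 5. All 4 female groups overlapped, with means between 0.0909 and 0.194 CPM. The highest Day 0 value, 0.357 CPM, was in female Day 0 mouse 2, the library with 9670 CPM of hepatocyte genes, whose part in this value was not tested.

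**Figure D3:**
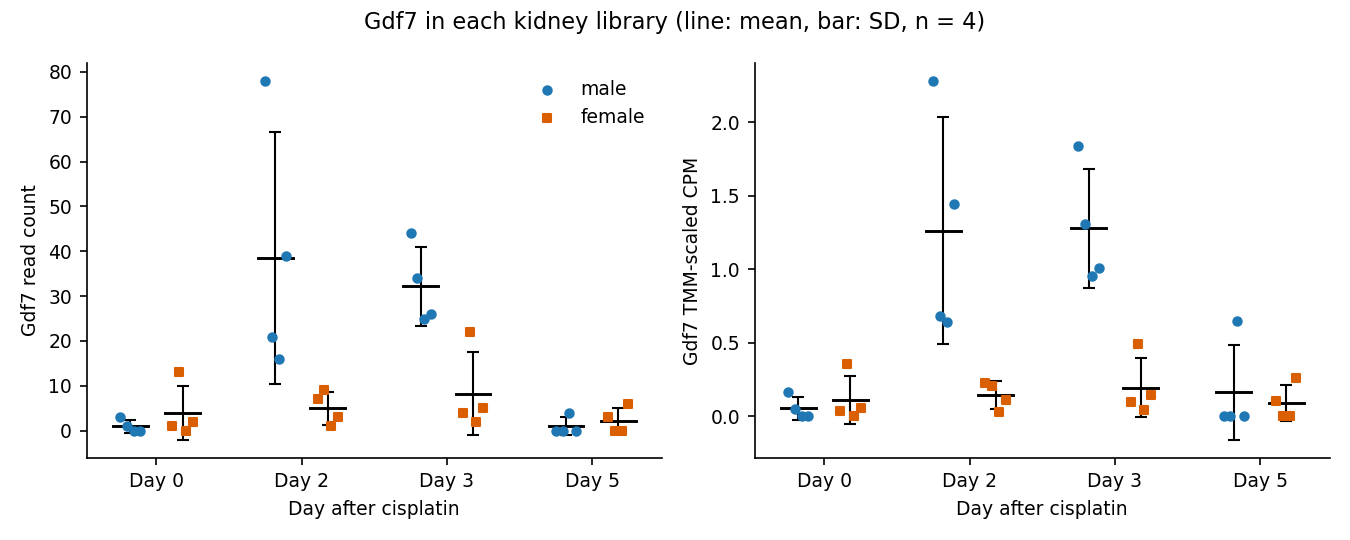
Gdf7 in each library as read counts (left) and as TMM-scaled CPM (right) by day, with circles for males, squares for females, a line at the mean and a bar for the SD of 4 mice. The 8 male libraries of Day 2 and Day 3 hold 16 to 78 reads and all other male libraries at most 4.

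The activin subunit genes differed in level. Inhbb, the beta-B subunit of activin B, lies on chromosome 1 from 119415465 to 119422248. In male mice 1 to 4 it stood at 2.33, 1.85, 0.803 and 2.36 CPM at Day 0, at 6.15, 2.78, 2.89 and 7.70 at Day 2, at 8.01, 5.17, 4.29 and 2.26 at Day 3, and at 3.13, 10.5, 19.3 and 4.07 at Day 5. Day 2 and Day 5 lay wholly above Day 0, and Day 3 overlapped it through mouse 4. The log2 fold change was 1.43 ± 0.459 at Day 2 (SE, adjusted p = 0.0884), 1.44 ± 0.452 at Day 3 (adjusted p = 0.0485) and 2.40 ± 0.618 at Day 5 (adjusted p = 0.0278).

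Both calls of Inhbb depended on single mice. The Day 3 call was lost without male Day 0 mouse 1 or 2 (adjusted p = 0.0722 and 0.0963) and without male Day 3 mouse 1, 2 or 3 (0.137, 0.108 and 0.102). It was also lost in 1 fit over all 8 groups (0.061), without a filter (0.0563) and without mitochondrial genes (0.0502). The Day 5 call was lost without male Day 0 mouse 1 or 2 (0.0639 and 0.0747) and without male Day 5 mouse 2 or 3 (0.0747 and 0.0898). Without male Day 5 mouse 1, whose Inhbb was lowest of its group, it was 2.71 ± 0.56 with an adjusted p of 0.00877. In females, Inhbb at Day 3 was 17.4, 3.08, 6.81 and 5.04 CPM in mice 1 to 4, against 1.52, 1.02, 3.92 and 2.43 at Day 0, which overlapped, and the log2 fold change of 1.86 ± 0.599 did not pass (adjusted p = 0.0807). It passed in DESeq2 (0.0129) and in 1 fit over all 8 groups (0.0135), and in none of the 8 fits that left out 1 mouse, where it lay between 1.16 and 2.27 (adjusted p between 0.058 and 0.237).

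Tubule injury genes, 5 in all (Havcr1, Lcn2, Krt20, Sox9 and Vcam1), were read beside Inhbb. Their sum in male mice 1 to 4 was 17.1, 21.8, 21 and 127 CPM at Day 2, 112, 36.6, 45.8 and 18.5 at Day 3, and 18.9, 29.9, 197 and 29.5 at Day 5, against 11.4 to 14.9 at Day 0. The mouse with the most Inhbb on each of these days was also the one with the highest sum. Fibroblast and mural cell genes summed to 325 to 1530 CPM at male Day 5, against 198 to 766 at male Day 0, which overlapped. Proximal tubule genes summed to 598 to 5310 CPM there, against 8560 to 11100. The part of injury or of these cell types in the Inhbb values was not tested.

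Inhba, the beta-A subunit of activin A, was near the limit of detection. Its counts in females were 1, 9, 0 and 1 at Day 0, 3, 9, 6 and 11 at Day 2, 106, 20, 31 and 16 at Day 3, and 26, 11, 30 and 9 at Day 5. All female Day 3 and Day 5 libraries lay above Day 0 on the CPM scale, and the log2 fold changes of 3.6 ± 1.03 and 3.40 ± 1.05 had adjusted p-values of 0.0615 and 0.197, with a size that depends on the prior count since Day 0 was close to 0. At Day 3, 1 of 8 fits that left out 1 mouse passed, that without female Day 0 mouse 4 (3.29, adjusted p = 0.0475), and the others had an adjusted p up to 0.202, with log2 fold changes between 2.64 and 5.36 over all 8. At Day 5, 0 of 8 passed (adjusted p between 0.109 and 0.471). DESeq2 called both days (0.00335 and 0.0203), as did 1 fit over all 8 groups (0.00491 and 0.0192), and the remaining 4 settings called neither (adjusted p up to 0.159 and 0.229). In males 1 to 4, Inhba stood at 0.109, 0.15, 0 and 0.575 CPM at Day 0, at 0.585, 0.356, 0.402 and 0.74 at Day 2, at 0.292, 0.232, 0.114 and 0.467 at Day 3, and at 0.615, 0.743, 2.58 and 0.421 at Day 5. Each later male group overlapped Day 0, and the Day 5 values rest on 3 to 16 reads a library. The log2 fold change at Day 2 was 1.38 ± 0.89 (adjusted p = 0.329), and 1 fit over all 8 groups, which kept Inhba, called it at male Day 5, while DESeq2 and a fit without a filter did not. Female Day 3 mouse 1 was highest for Inhba (2.63 CPM) and Inhbb and also for the summed tubule injury genes, at 373 CPM against 29.2 to 157 in the other mice of its group. In the female Day 3 group, the family genes Inha and Amh ranged from 2.19 to 23.8 CPM and from 0.447 to 3.35. At female Day 0 they ranged from 0.833 to 2.25 CPM and from 0.297 to 0.552. Whether injury level or RNA of other tissues had a part in these values was not tested.

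**Figure D4:**
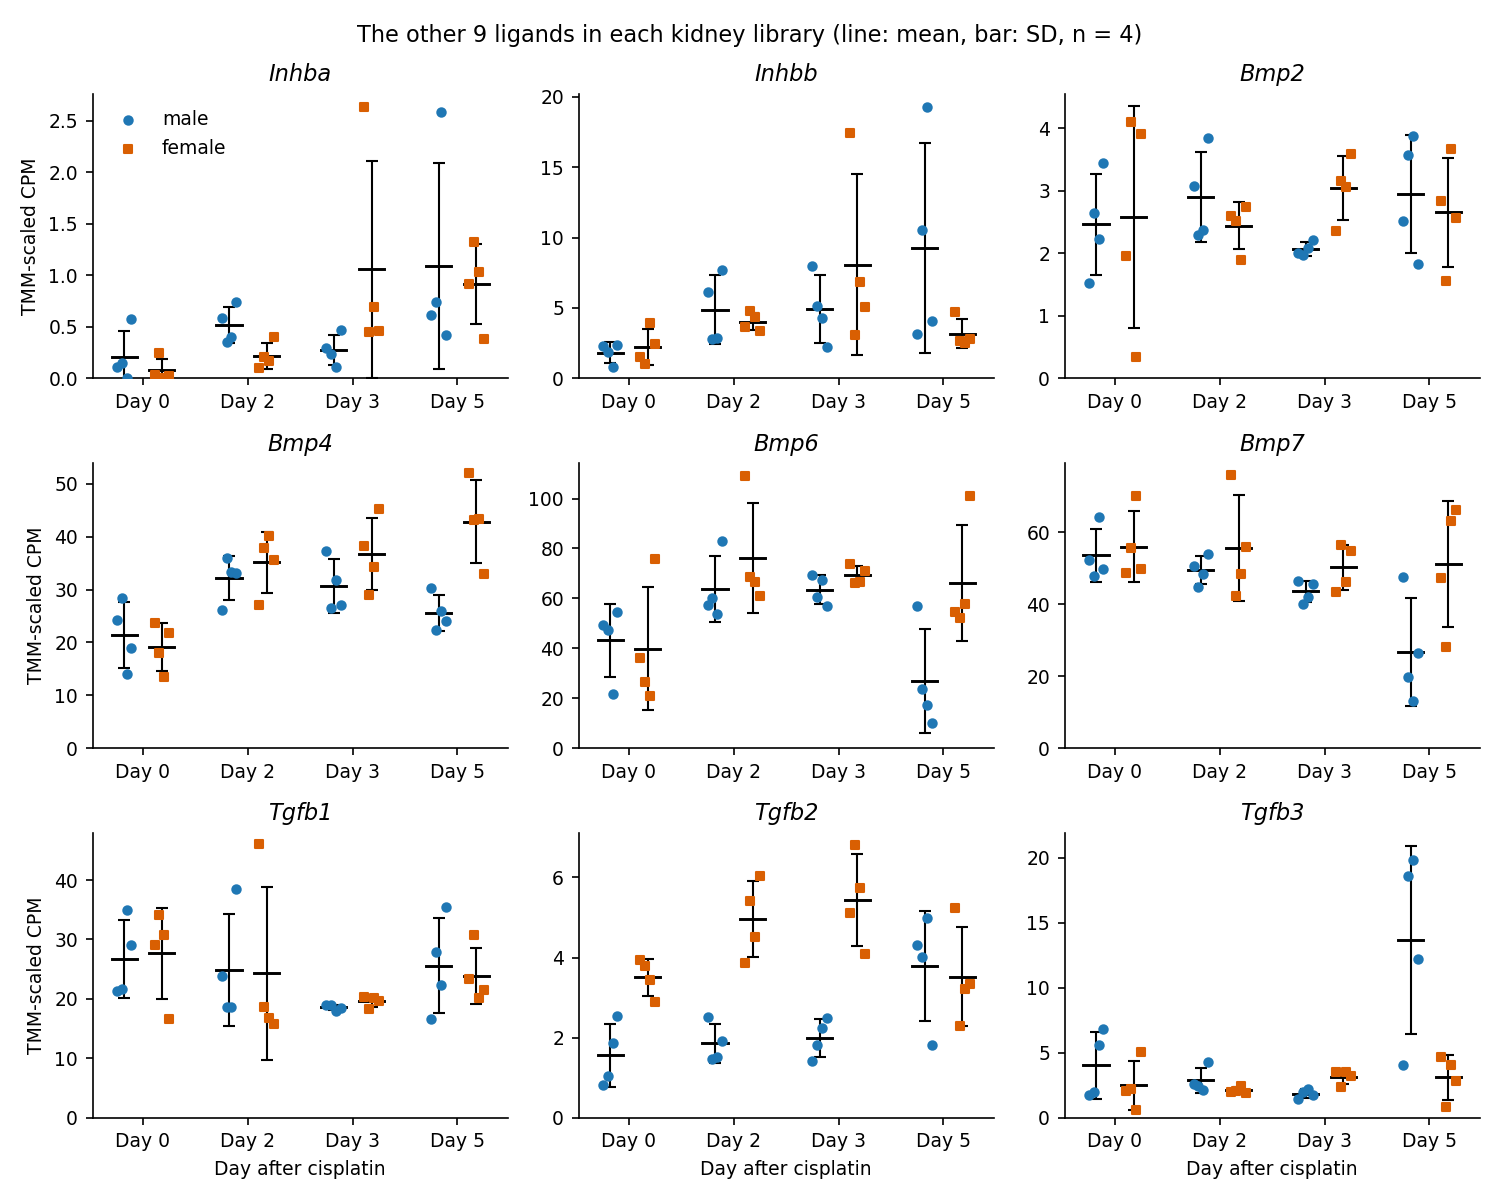
TMM-scaled CPM of the 9 other ligands in each library by day, with circles for males, squares for females, a line at the mean and a bar for the SD of 4 mice. Bmp4 is higher in all female libraries of Day 2 (27.0 to 40.2), Day 3 (29.0 to 45.2) and Day 5 (32.9 to 52.0) than at Day 0 (13.4 to 23.7), and Tgfb2 is higher in females than in males at Day 0, Day 2 and Day 3.

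Among the BMPs, Bmp4 was higher after cisplatin in females. Bmp4, which guides ureter outgrowth in development, lies on chromosome 14 from 46383520 to 46390669. Female mice 1 to 4 stood at 23.7, 18, 13.4 and 21.8 CPM at Day 0, at 27.0, 37.9, 40.2 and 35.7 at Day 2, at 38.3, 29.0, 34.3 and 45.2 at Day 3, and at 52.0, 43.1, 43.4 and 32.9 at Day 5. No later female library overlapped Day 0. The log2 fold change was 0.87 ± 0.237 at Day 2 (adjusted p = 0.0667), 0.92 ± 0.22 at Day 3 (adjusted p = 0.0489) and 1.16 ± 0.239 at Day 5 (adjusted p = 0.0928, unadjusted p = 0.000559 in edgeR). The 6 adrenal genes stood at 197 to 549 CPM in the Day 5 libraries and at 731 and 842 CPM in female Day 3 mice 3 and 4, against at most 73.6 at Day 0, and their part in these values was not tested.

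The Bmp4 call at female Day 3 was lost in 7 of 8 fits that left out 1 mouse. The adjusted p was 0.0927, 0.138 and 0.072 without female Day 0 mouse 1, 2 or 3, and 0.168, 0.0562, 0.163 and 0.128 without female Day 3 mouse 1, 2, 3 or 4. In those 7 fits between 0% and 1.35% of all genes rose. DESeq2's size factors gave 0.0515. Without female Day 0 mouse 4, Bmp4 passed at all 3 days, with 0.93 at Day 2 (adjusted p = 0.0185), 0.98 at Day 3 (0.0116) and 1.23 at Day 5 (0.0172). Without that mouse the shares of all genes that rose were 13.4% at Day 2, 18.7% at Day 3 and 4.85% at Day 5, against 0.774%, 1.26% and 0.185% with it. In 1 fit over all 8 groups it also passed at Day 2 (0.00419), Day 3 (0.00228) and Day 5 (0.00324), and DESeq2 called it at Day 2 (0.0204) and Day 5 (0.00256) too. In males, Bmp4 ranged from 14.0 to 28.4 CPM at Day 0 and from 26.2 to 36 at Day 2, with a log2 fold change of 0.61 ± 0.218 (adjusted p = 0.113).

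Bmp6, which in the liver signals iron load, stood at 36.3, 26.5, 20.9 and 75.7 CPM in female mice 1 to 4 at Day 0 and at 109, 68.6, 66.7 and 61.0 at Day 2. Only female Day 0 mouse 4 overlapped the later groups. With all mice the log2 fold change at Day 2 was 0.94 ± 0.386 (adjusted p = 0.164). Without that mouse it was 1.45 ± 0.281 at Day 2 (adjusted p = 0.00567), 1.30 ± 0.191 at Day 3 (adjusted p = 0.00211) and 1.25 ± 0.286 at Day 5 (adjusted p = 0.0228), in the same fits whose shares of all genes are given above for Bmp4. Female Day 0 mouse 4 had 383 CPM of erythroid genes and 449 CPM of podocyte genes, the lowest and the highest of its group, and 19.7% mitochondrial reads. Across that group, thick ascending limb genes also ranged from 536 to 2350 CPM and collecting duct genes from 624 to 1470. Fibroblast and mural cell genes ranged from 209 to 473 CPM and macrophage genes from 112 to 234. The part of these in the result was not tested.

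In males, Bmp6 and Bmp7 were low in 3 of the 4 Day 5 libraries. Bmp7, a BMP that counters TGF-beta signals in tubule cells, stood at 52.4, 47.8, 64.2 and 49.9 CPM at Day 0 and at 47.7, 19.9, 13.1 and 26.5 at Day 5. The groups did not overlap, and the library labelled male Day 5 mouse 1 lay just below the lowest Day 0 value. The log2 fold change of Bmp7 was -0.94 ± 0.343 (adjusted p = 0.0814) with that library and -1.36 without it (adjusted p = 0.00633). It also passed with all mice in 1 fit over all 8 groups (-0.99, adjusted p = 0.00502), where 31.1% of all genes passed. For Bmp6, with 57.1, 23.5, 17.4 and 9.97 CPM at Day 5 against 49.2, 47.2, 21.8 and 54.4 at Day 0, the value was -1.27 ± 0.376 without that library (adjusted p = 0.0371) and did not pass with it (adjusted p = 0.391). The 7 proximal tubule genes summed to 5310 CPM in mouse 1 and to 598 to 1240 CPM in the other 3 male Day 5 libraries, against 8560 to 11100 CPM at Day 0, and their part in these values was not tested. At male Day 3, where Bmp6 ranged from 56.8 to 69.2 CPM and did not overlap Day 0, its log2 fold change was 0.56 ± 0.252 (adjusted p = 0.13). Without male Day 0 mouse 3 it was smaller, 0.34 (adjusted p = 0.0247), in a fit where 38.6% of all genes passed, against 24.5% with all mice. Bmp2, an inducer of bone, had means between 2.07 and 3.04 CPM in all 8 groups and passed against Day 0 in none of the 6 comparisons.

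Tgfb1, the main TGF-beta of kidney scarring, passed against Day 0 on no day in edgeR with all mice. Male libraries stood at 21.3, 21.6, 34.9 and 29.1 CPM at Day 0 and at 18.9, 19.0, 18 and 18.5 at Day 3, which did not overlap. The log2 fold change at Day 3 was -0.53 ± 0.176 in males (adjusted p = 0.0578) and -0.51 ± 0.218 in females (adjusted p = 0.151). It passed in males in DESeq2 (-0.51, adjusted p = 0.0467) and without male Day 0 mouse 1 (-0.64, adjusted p = 0.0434) or mouse 3 (-0.37, adjusted p = 0.0422). In these fits 27.7%, 17.8% and 38.6% of all genes passed, against 24.5% in edgeR with all mice, and the change without mouse 3 was smaller. In females it passed without female Day 0 mouse 4 (-0.69, adjusted p = 0.00324), where 39.1% of all genes passed, against 5.54% with all mice. The 6 macrophage genes ranged from 131 to 223 CPM in males at Day 0 and from 89.8 to 116 at Day 3, and their part in the result was not tested.

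Tgfb3, known from palate fusion and wound repair, was high at male Day 5. It stood at 4.03, 18.6, 19.8 and 12.2 CPM there and at 1.74, 1.95, 5.62 and 6.85 at Day 0. The library labelled male Day 5 mouse 1 was the one that overlapped. The log2 fold change was 1.81 ± 0.591 with it (adjusted p = 0.0579) and 2.13 without it (adjusted p = 0.0156), and 2.16 without male Day 0 mouse 4 (adjusted p = 0.0432). With all mice it passed in DESeq2 (1.81, adjusted p = 0.013) and in 1 fit over all 8 groups (1.74, adjusted p = 0.0088). Fibroblast and mural cell genes, 6 in all, summed to 325 CPM in that library and to 878 to 1530 CPM in the other 3, against 198 to 766 CPM at Day 0, and their part in this value was not tested.

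Tgfb2, required for heart and kidney development, had the clearest difference between the sexes. In males 1 to 4 it stood at 0.814, 1.05, 1.86 and 2.53 CPM at Day 0, at 2.52, 1.46, 1.53 and 1.92 at Day 2, at 1.42, 1.81, 2.24 and 2.49 at Day 3, and at 4.31, 4.01, 5.00 and 1.83 at Day 5. In females 1 to 4 it stood at 3.93, 3.79, 3.43 and 2.89 at Day 0, at 3.87, 5.41, 4.52 and 6.03 at Day 2, at 5.11, 6.81, 5.73 and 4.08 at Day 3, and at 5.24, 2.29, 3.22 and 3.35 at Day 5. Every female library lay above every male library at Day 0, Day 2 and Day 3, and the sexes overlapped at Day 5. The log2 ratio of males to females was -1.18 ± 0.43 at Day 0 (adjusted p = 0.459), -1.42 ± 0.24 at Day 2 (adjusted p = 0.0169), -1.48 ± 0.216 at Day 3 (adjusted p = 0.00211) and 0.15 ± 0.39 at Day 5 (adjusted p = 0.858), or 0.13 ± 0.444 without the library labelled male Day 5 mouse 1 (adjusted p = 0.874).

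The Day 3 difference of Tgfb2 passed in all 8 fits that left out 1 mouse, with adjusted p-values up to 0.012, and in each of the 6 other settings tried. The Day 2 difference was lost without male Day 2 mouse 2 or 3 (adjusted p = 0.0612 and 0.0721) and without female Day 2 mouse 2 or 3 (0.0648 and 0.0534). In 1 fit over all 8 groups the Day 0 difference passed too, at -1.16 (adjusted p = 0.046). Against Day 0, Tgfb2 was 1.33 ± 0.488 higher on the log2 scale in males at Day 5 (adjusted p = 0.0818), with overlapping groups, and 1.27 ± 0.56 without the library labelled male Day 5 mouse 1 (adjusted p = 0.128). It passed in DESeq2 (1.33, adjusted p = 0.0451) and in 1 fit over all 8 groups (1.27, adjusted p = 0.00497), and in 0 of the 8 fits that left out 1 mouse.

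Between the sexes at matched days, 0 of 8 tested ligands passed at Day 0 (0.449% of all genes passed), and 1 of 9 passed at Day 2, Tgfb2, which was lower in males (1.47% of genes). At Day 3, 3 of 9 passed, Tgfb2, Tgfb3 and Bmp2, all lower in males (21.3% of genes). At Day 5, 0 of 9 passed (0.276% of genes). By edgeR, 1 ligand at Day 0 and 5 at Day 5 had an unadjusted p under 0.05, against 8.04% and 20.3% of all genes, and DESeq2 called 0 and 2, against 2.19% and 5.95%. Without the library labelled male Day 5 mouse 1, 5 of the ligands passed at Day 5, with Inhbb (1.93, adjusted p = 0.0131) and Tgfb3 (2.50, adjusted p = 0.00207) higher in males and Bmp4 (-0.72, adjusted p = 0.0297), Bmp6 (-1.85, adjusted p = 0.00229) and Bmp7 (-1.24, adjusted p = 0.0179) lower. In that fit 17.0% of all genes passed, against 0.276% with the library.

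**Figure D5:**
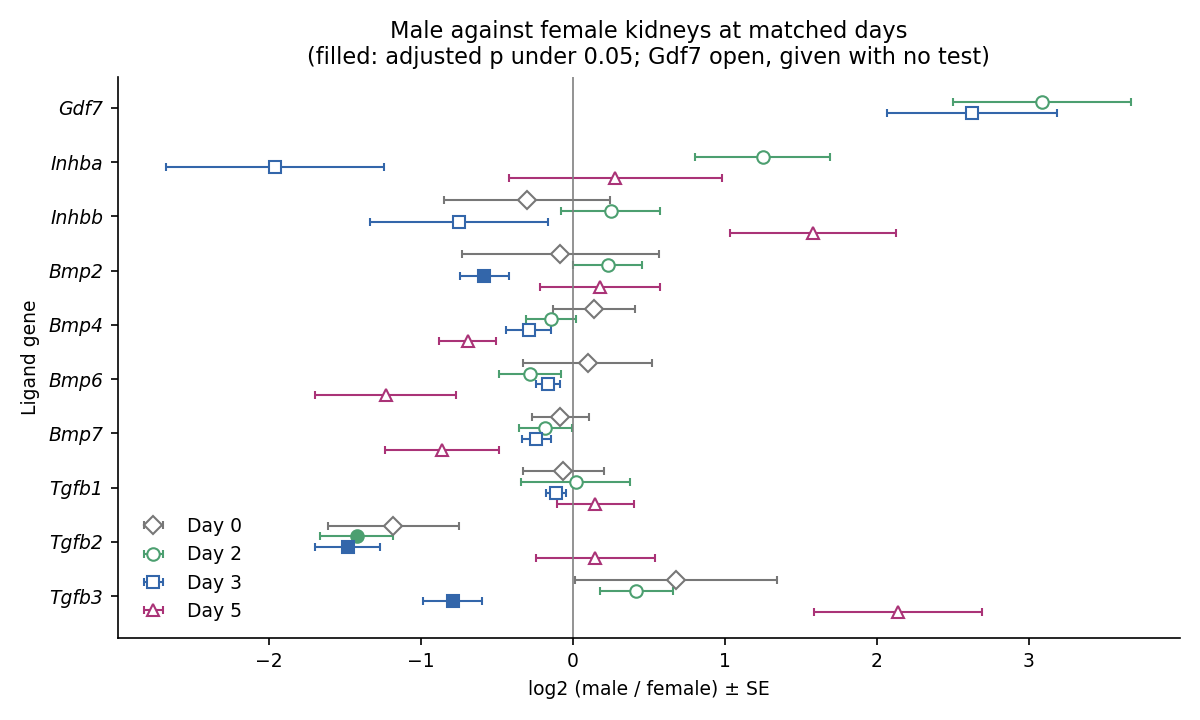
log2 ratio of male to female kidneys with its standard error for each ligand, with diamonds for Day 0, circles for Day 2, squares for Day 3 and triangles for Day 5, and filled symbols for an adjusted p under 0.05. Gdf7 is drawn open at all its days since it is given with no test, and it lies to the right at Day 2 (3.09) and Day 3 (2.63), and Tgfb2 to the left at Day 0, Day 2 and Day 3.

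The male level of Gdf7 had taken part in its choice, so its difference between the sexes is a description. The log2 ratio of males to females was 3.09 ± 0.587 at Day 2 and 2.63 ± 0.56 at Day 3 (SE). The 16 to 78 reads of the male libraries on these days stood against 1 to 22 in the females, with no overlap on the CPM scale on either day. At Day 3, male Tgfb3 lay between 1.42 and 2.24 CPM and female Tgfb3 between 2.39 and 3.55, a log2 ratio of -0.79 ± 0.195 (adjusted p = 0.0194) that was lost without male Day 3 mouse 4 (0.0569) or female Day 3 mouse 3 (0.0583). Male Bmp2 lay between 1.97 and 2.22 CPM and female Bmp2 between 2.36 and 3.59, a log2 ratio of -0.58 ± 0.163 (adjusted p = 0.0316). It was lost without male Day 3 mouse 1, 2, 3 or 4 (0.0658, 0.0883, 0.0782 and 0.0619), without female Day 3 mouse 3 or 4 (0.076 and 0.07) and without a filter (0.0511). In 1 fit over all 8 groups, Tgfb3 and Bmp2 did not pass (0.68 and 0.746).

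A test of whether the change from Day 0 differed between the sexes passed for none of the other 9 ligands in edgeR or in DESeq2. Of all genes, 0% passed at Day 2, 0.0114% at Day 3 and 0.243% at Day 5 by edgeR, and 0.188%, 0.386% and 3.95% by DESeq2. Inhba at Day 3 (-3.16, unadjusted p = 0.0476) and Inhbb, Bmp4 and Tgfb2 at Day 5 (1.86, -0.85 and 1.30, unadjusted p between 0.0216 and 0.04 by edgeR) were the terms with an unadjusted p under 0.05. At Day 5 no ligand passed without the library labelled male Day 5 mouse 1 either, where 6.74% of all genes did. The smallest adjusted p were then 0.0553 for Bmp6 (-2.03) and 0.0629 for Bmp7 (-1.26), with 0.105 for Inhbb (2.15), 0.139 for Bmp4 (-0.93) and 0.291 for Tgfb2 (1.24).

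The rest of the pathway was read in lists of its parts. Of 23 other ligands of the family, 6 to 9 passed the filter in a given comparison against Day 0. Gdf15, a stress-induced member, rose in females at Day 2 (2.69 ± 0.329, adjusted p = 0.00576), Day 3 (3.00 ± 0.671, adjusted p = 0.0479) and Day 5 (3.18 ± 0.349, adjusted p = 0.00427) and in males at Day 3 (1.85 ± 0.319, adjusted p = 0.00956). The female Day 3 call was lost without female Day 0 mouse 1, 2 or 3 or female Day 3 mouse 1, 3 or 4 (adjusted p up to 0.168), and the other 3 calls held in all such fits. Its level went from 14.8 ± 4.93 to 53.7 ± 18.3 CPM in males at Day 3 and from 12.2 ± 3.51 to 111 ± 43.0 CPM in females at Day 5. With all mice Gdf10, Bmp3, Bmp8a, Bmp15, Lefty1 and Inha passed in no comparison. Without the library labelled male Day 5 mouse 1, Bmp3 rose at male Day 5 (2.21, adjusted p = 0.0484), and at Day 5 Bmp3 (1.69, adjusted p = 0.0128) and Gdf10 (1.14, adjusted p = 0.0215) were higher and Gdf15 (-1.86, adjusted p = 0.0122) lower in males than in females. In the same refit the change of Gdf15 from Day 0 to Day 5 was lower in males (-2.22, adjusted p = 0.0235), and 1 receptor, 3 antagonists, 3 convertases and 1 BMP target of the lists given next also passed that test, against 6.74% of all genes. Without female Day 0 mouse 4, Bmp8a rose in females at Day 2 (2.75, adjusted p = 0.032) and Day 3 (2.93, adjusted p = 0.0413). Gdf11 was higher in males at Day 2 (0.82, adjusted p = 0.0337, held in 2 of 8 fits that left out 1 mouse). Amh was lower in males at Day 3 (-3.26, adjusted p = 0.0349, held in 4 of 8). Male Amh lay between 0.038 and 0.209 CPM there, near the floor of 3 counts. Female Amh was 1.23 ± 1.41 CPM (SD, n = 4), with a maximum of 3.35.

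At male Day 3, 3 of 15 receptors, 1 of 8 Smads, 3 of 21 antagonists and latency proteins, 4 of 10 convertases and activators, 1 of 10 BMP target genes and 3 of 12 TGF-beta and activin target genes rose, to be read against the 11.4% of all genes that rose. A convertase or activator and a BMP target gene fell, 1 each, against 13.1% of all genes. At female Day 3 these lists gave 1 receptor and 1 antagonist that rose and no other call, where 1.26% of all genes rose. Leaving out 1 mouse at a time moved the counts in either direction at male Day 3 to between 1 and 7 receptors, 0 and 4 Smads, 1 and 8 antagonists, 1 and 8 convertases, 0 and 3 BMP targets and 0 and 4 TGF-beta targets. The share of all genes that passed in either direction in those fits went from 4.18% to 38.6%. At female Day 3, leaving out female Day 0 mouse 4 gave 9, 4, 7, 5, 3 and 7 genes past the threshold, with 18.7% of all genes that rose and 20.4% that fell, and leaving out any other mouse gave at most 1 in each list. Beside Gdf15, the genes of these lists past the threshold in both sexes at Day 3 were the co-receptor Tgfbr3, with 0.99 ± 0.173 in males (adjusted p = 0.00982) and 0.85 ± 0.181 in females (adjusted p = 0.0467), and Crim1, a membrane protein that binds BMPs, with 0.98 ± 0.144 (adjusted p = 0.00653) and 1.23 ± 0.267 (adjusted p = 0.0478). Both male calls held whichever mouse was left out, and both female calls held only without female Day 0 mouse 4 (adjusted p up to 0.168 otherwise).

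At male Day 2, 1 receptor, 1 antagonist and 1 convertase rose and 1 convertase fell, against 1.81% of all genes that rose and 1.35% that fell, and at female Day 2 and Day 5 no gene of the 6 lists passed with all mice. Without female Day 0 mouse 4, 7 receptors, 3 Smads, 2 antagonists, 3 convertases, 2 BMP targets and 4 TGF-beta targets passed at female Day 2 (13.4% of all genes rose and 15.0% fell), and 2 receptors, 3 antagonists, 2 convertases and 1 TGF-beta target at female Day 5 (4.85% and 7.79%). At male Day 5, 5 of 15 receptors, 1 of 8 Smads, 6 of 20 antagonists and latency proteins, 2 of 10 convertases and activators, 2 of 10 BMP targets and 1 of 12 TGF-beta and activin targets rose, and 1 convertase and 1 BMP target fell, against 8.98% and 10.2% of all genes. Without the library labelled male Day 5 mouse 1, 5 receptors, 1 Smad, 10 antagonists, 2 convertases, 4 BMP targets and 1 TGF-beta target rose and 3 convertases and 1 BMP target fell, against 11.4% and 14.5%. Over all 8 fits that left out 1 mouse, the genes past the threshold at male Day 5 were 1 to 5 receptors, 0 to 2 Smads, 3 to 10 antagonists, 2 to 5 convertases, 1 to 5 BMP targets and 0 to 3 TGF-beta targets, with between 5.38% and 26% of all genes. Between the sexes, no gene of these lists passed at Day 0 or, with all mice, at Day 5. Leaving out the library labelled male Day 5 mouse 1, 5 receptors, 9 antagonists, 1 convertase and 1 TGF-beta target were higher and 5 convertases and 1 BMP target lower in males at Day 5, against 17.0% of all genes that passed. At Day 2, 1 of 21 antagonists was higher in males and 1 of 8 Smads and 2 of 10 BMP targets were lower, with no call among 15 receptors, 10 convertases or 12 TGF-beta and activin targets (1.47% of all genes). At Day 3, 4 of 16 receptors, 1 of 8 Smads, 3 of 23 antagonists, 2 of 10 convertases, 2 of 10 BMP targets and 0 of 12 TGF-beta and activin targets passed, against 21.3% of all genes. Leaving out 1 mouse moved these to 1 to 7 receptors, 1 to 2 Smads, 1 to 5 antagonists, 2 to 4 convertases, 2 to 5 BMP targets and 0 to 4 TGF-beta targets, with between 11.1% and 34.6% of all genes.

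Genes whose log2 CPM was most like that of each ligand over the 32 libraries are a description of shared levels in libraries that also share depth and makeup. For Gdf7 they were Gm45464 (Pearson's r = 0.763), Gm43127 (0.754), Gm42664 (0.748), Cdk19 (0.743) and Gm38077 (0.737), of which the 4 Gm genes held at most 43 reads in any library. The 2 nearest genes were Lox and Msr1 for Inhba, Akap12 and Actn1 for Inhbb, Adra1b and Galnt6 for Bmp2, Gm27252 and Nfe2l2 for Bmp4, Slc22a5 and Pskh1 for Bmp6, Cdhr5 and Prss8 for Bmp7, Laptm5 and Adam15 for Tgfb1, Myh1 and Igf2 for Tgfb2, and Galnt17 and Fap for Tgfb3, with r between 0.789 for Msr1 and 0.954 for Slc22a5. Without Day 5, over 24 libraries, the 5 genes most like Gdf7 were Cxcl12 (0.885), Tek (0.845), Frem1 (0.84), Adamts10 (0.836) and Tnc (0.823). Among the ligands themselves, Bmp4 and Bmp6 had an r of 0.57 over 32 libraries and 0.76 without Day 5, and Gdf7 had none above 0.32 in size with another ligand over 32 libraries.

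Reads of some ligands could be shared with genes on the opposite strand, since the strand setting of the counting is not given in the sources used here. The longest overlap with a gene that was itself well counted was 5149 bases of Tgfb3 with Ttll5, which held 48 to 411 reads. Bmp4 overlapped Gm15222 (7 to 206 reads) by 1764 bases and Gm15217 (11 to 700 reads) by 89 bases, and Bmp6 overlapped Txndc5 (494 to 6444 reads) by 224 bases. The genes that overlapped Inhba and Tgfb2 held at most 4 reads, and Gdf7, Inhbb, Bmp2, Bmp7 and Tgfb1 overlapped no other gene of the table.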

How the data were processed

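Kidney RNA-seq libraries of 32 mice were compared by sex and day. The authors deposited read counts per gene, counted with HTSeq per the submitters' processing notes, and FPKM values, which equal counts per kilobase over a library size scaled by a factor of 0.29 to 1.46 (100% of values matched within 1e-06). The notes list GRCm39 and mm39 and the study's methods GRCm38. The deposited coordinates of the 10 members are those of GRCm38, which is used here. The aligner version and strand setting are not given in the sources used here.

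Counts were tested with edgeR 4.0.16 (R 4.3.3, limma 3.58.1), with TMM scaling, filterByExpr and robust quasi-likelihood fits on the groups of each of 13 comparisons, and p-values were adjusted by Benjamini-Hochberg over all genes tested. The prior count was 2 for log2 CPM values, and the fits kept edgeR's default. CPM values used TMM factors over all 32 libraries. Levels were compared between genes only as FPKM. The SE of a log2 ratio is its size over the square root of the F statistic of its edgeR test. DESeq2 1.42.0, its size factors in edgeR, no filter, 1 fit over all 8 groups, a replicate block, removal of mitochondrial genes and leaving out each mouse were the alternatives. No pair of libraries held identical values. Scripts were tested on simulated data, and figures were drawn with matplotlib 3.10.9.

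The members and lists were chosen with earlier results of these data known. Gdf7 was to be counted between the sexes but was left out of all counts, since its male level had been used to choose it. All 10 members were named, with the 5 genes most correlated with Gdf7 and the 2 most correlated with each other member among the 18220 genes that passed the filter over 8 groups. From the pathway lists, all tested ligands were eligible, and in each other list up to 4 genes passing with the same sign in both sexes at Day 3. Hjv and Ccn2 were not found under those symbols. Bmp8a and Bmp8b are near copies, so their counts are uncertain. Floors of 3 counts cover counting error only.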

Additional observations from a re-analysis of the deposited data

Results flagged for a closer look

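Among 80 sets of 4 mice, 1 for each ligand and group, 5 held a mouse far from the other 3. Chance flags about 1 in 20 such sets where log2 values are normal, which does not hold for genes near 0. Gdf7 stood at 0.645 CPM in male Day 5 mouse 3, from 4 reads, and at 0 in the other 3 libraries of that group. In such a set any library with reads is flagged. Inhbb stood at 4.74 CPM in female Day 5 mouse 1, above 2.54 to 2.79 CPM in the rest of its group. Bmp6 stood at 21.8 CPM in male Day 0 mouse 3, the library with the most erythroid RNA of its group (2020 CPM over 4 genes, against 407 to 516), whose part in this value was not tested. Bmp6 stood at 101 CPM in female Day 5 mouse 4, against 52.0 to 57.6 CPM in the other 3. Tgfb1 stood at 46.1 CPM in female Day 2 mouse 1, against 15.7 to 18.7 CPM in the other 3. That library also had more RNA of endothelial (690 against 306 to 354 CPM), collecting duct (1220 against 527 to 602) and podocyte genes (609 against 416 to 483), whose part in this value was not tested.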

How the results depend on the processing

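Of 113 ligand fold changes, 31 changed sign in at least 1 of the other fits. None of these had an unadjusted p under 0.05 in edgeR with all mice, and none passed after the change. Tgfb3 at female Day 2, for example, went from -0.25 to 0.35 without female Day 0 mouse 4. The number of ligands that passed moved as follows, over the 9 ligands other than Gdf7, and the cause was not tested. With DESeq2's Wald test it was 1, 2 and 3 at male Day 2, Day 3 and Day 5, 1, 3 and 2 at female Day 2, Day 3 and Day 5, and 4 and 2 between the sexes at Day 3 (Inhba was added, -1.96, adjusted p = 0.0213) and Day 5. DESeq2 called 16.3%, 27.7% and 22.1% of all genes in males, 11.6%, 17.7% and 4.13% in females, and 22.9% and 5.95% between the sexes on those days. In 1 fit over all 8 groups it was 0 at male Day 3, 5 at male Day 5, 1, 3 and 2 in females at Day 2, Day 3 and Day 5, and 1, 1, 1 and 4 between the sexes on the 4 days in order, against 19.5% and 31.1%, 21.8%, 23.4% and 10.9%, and 3.22%, 0.763%, 0.988% and 9.69% of all genes. Without a filter it was 0 at male Day 3 and 1 at female Day 5, and 2 between the sexes at Day 3, without mitochondrial genes 0 at male Day 3, and with DESeq2's size factors 0 at female Day 3. These fits called 8.62%, 0.625% and 9.89%, 24.7% and 2.53% of all genes. Leaving out 1 mouse gave 0 to 0, 0 to 3 and 0 to 4 in males at Day 2, Day 3 and Day 5, 0 to 2, 0 to 4 and 0 to 2 in females, and 0 to 0, 0 to 1, 1 to 4 and 0 to 5 between the sexes on the 4 days in order. The shares of all genes in these fits ran from 0.079% to 14.0%, 4.18% to 38.6% and 5.38% to 26% in males, from 0.125% to 28.3%, 0% to 39.1% and 0.0483% to 12.6% in females, and from 0% to 0.495%, 0.567% to 3.35%, 11.1% to 34.6% and 0% to 17.0% between the sexes. For the change that differs by sex the count stayed at 0 in all these fits. The share of all genes there ran from 0% to 7.55%, highest in 1 fit over all 8 groups at Day 5.

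Nothing in the labels ties mice of the same number together. Deviations of same-numbered libraries correlated between -0.415 and 0.481, and in no comparison were all 4 above 0.1, so the numbers were not used as pairs. Between the sexes at Day 0, mice 1, 3 and 4 correlated best with their own number (0.272, 0.444 and 0.481) and mouse 2 did not (-0.0737). With the number as a replicate block, 0 ligands passed at male Day 3 (Inhbb 1.41, adjusted p = 0.095), 0 at female Day 3 and 0 between the sexes at Day 2 (Tgfb2 -1.44, adjusted p = 0.0748), 2 between the sexes at Day 3 (Bmp2 -0.57, adjusted p = 0.058), and at male Day 5 the 1 ligand that passed was Tgfb3 (adjusted p = 0.0425) and not Inhbb (2.07, adjusted p = 0.108). The block called 0.566% of all genes at male Day 3, 13.0% at male Day 5, 0% at female Day 3, and 0.849% and 17.6% between the sexes at Day 2 and Day 3. Gdf7 and Inhba held 0 reads in some libraries, so their fold changes depend on the prior count.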

Other observations

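Blood cell genes varied between the groups that carry the ligand values, and are given as levels with no test. The 4 erythroid genes summed to 407 to 2020 CPM in males at Day 0, 7.27 to 159 CPM at Day 2, 0.811 to 2.25 CPM at Day 3 and 197 to 5330 CPM at Day 5. In females they summed to 383 to 2480, 6.72 to 42.8, 2.96 to 76 and 13.7 to 1430 CPM on the same days. The 5 neutrophil genes summed to 1.36 to 1.9 CPM in males at Day 0 and 9.85 to 209 CPM at Day 5, and in females to 1.27 to 7.99 CPM at Day 0 and 1.84 to 7.79 CPM at Day 5, which overlapped. By Spearman's correlation over the 32 libraries, the 5 genes nearest to Gdf7 were Zfp512b, Gm45464, Plppr3, Jade2 and Usp19 (0.786 to 0.789), of which 1 was also among the 5 by Pearson's correlation.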
